A study of Mus musculus with 195 samples.

Results

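The genes described here encode the proteins of the mouse cytosolic ribosome. They were taken by symbol, as protein-coding genes named Rpl or Rps with a number, plus Rpsa, Rplp0, Rplp1 and Rplp2, without the Rps6k kinases, pseudogenes and the mitochondrial Mrp genes. The annotation held 80 such genes, 49 of the large and 31 of the small subunit, and 78 of them were among the 19736 genes analysed. Rpl24 and Rpl3l were not analysed here in the single cells. Ribosomal protein genes with other names, such as Fau, Rack1 and Rpl36al, lie outside the symbol rule.

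The ribosome translates mRNA into protein. Its small subunit reads the message and its large subunit forms the peptide bond, and each ribosome carries its core proteins in equal numbers, apart from the acidic stalk proteins Rplp1 and Rplp2, which bind Rplp0 as dimers. The mRNAs are short and abundant in growing cells, and many begin with a C followed by a run of pyrimidines, the TOP motif, through which their translation follows growth signals. Several proteins also have roles outside the ribosome: Rpl5 and Rpl11, with 5S rRNA, bind Mdm2 and so act on p53.

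The cells were mouse embryonic stem cells of the 46C line and neural stem cells derived from such cells. The ESC-2i cells grew with PD0325901 at 1 µM, CHIR99021 at 3 µM and LIF at 10 ng/ml, that is, with inhibitors of the Mek and Gsk3 kinases. The ESC-FCS cells grew in 10% FBS with LIF at 10 ng/ml, and the NSC grew in N2&B27 medium with growth factors. Small cells in G1 were sorted one by one, 48 per population in 2 library batches of 24, and 3′ ends of polyadenylated RNA were counted as unique molecules at each polyadenylation site. The gene table held 33 ESC-2i cells (17 and 16 per batch), 33 ESC-FCS cells (19 and 14) and 41 NSC (21 and 20). A further set of 42 ESC-FCS control cells, 1 pool library of 48 ESC-FCS cells and 2 pool libraries of ESC-2i cells were used beside them.

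The labels name no replicate cultures, so each population counts as 1 sample. Differences between populations are therefore given as values and without p-values. Counting intervals (95%, exact), which cover counting error only, and values per batch are given for some of them. Levels are molecules per 10000 molecules on genes, with no correction for transcript length, because each molecule is counted once at its 3′ end. Fewer molecules of a gene and more molecules of other genes cannot be told apart on it.

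The cells carried 368362 (ESC-2i), 226683 (ESC-FCS) and 151877 (NSC) molecules on genes, with medians of 10864, 6375 and 3282 per cell. Nanog, a pluripotency factor, had 172, 68 and 0 molecules, and Fabp7, a fatty acid binding protein of neural progenitors, had 1, 1 and 376. Of the other embryonic stem cell markers, Zfp42, Esrrb and Tdgf1 had at most 1 molecule in NSC. Pou5f1 (19, 4 and 0) and Dppa5a (7, 4 and 0) had few molecules in any population. Of the other neural stem cell markers, Nes, Olig1, Olig2 and Vim were highest in NSC. Sox2 went the other way and was lowest there, at 1.63, 2.29 and 1.12 per 10000. Of 9 markers of other cells, those of primitive endoderm and astrocytes had at most 3 molecules in any population, Tubb3 had 5 to 9, Dcx had 0 to 2, and the neuronal Map2 had 0, 6 and 59. Mitochondrially encoded transcripts took 1.72%, 1.95% and 5.09% of molecules. The ESC-2i pools stood apart from the ESC-2i cells in ribosomal protein transcripts, and the second ESC-FCS batch stood apart for some members; both are given with their values below.

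Ribosomal protein transcripts made up 17.9% of all molecules in ESC-2i (66063 molecules, 17.8 to 18.1), 19.3% in ESC-FCS (43826 molecules, 19.2 to 19.5) and 12.1% in NSC (18395 molecules, 11.9 to 12.3). The batches gave 19.8% and 16.3% in ESC-2i, 19.3% and 19.4% in ESC-FCS, and 11.3% and 13% in NSC. Both NSC batches thus lay below all 4 embryonic stem cell batches, while the ESC-FCS batches lay inside the span of the ESC-2i batches. The ESC-FCS control cells held 16.5% (batches 16.2% and 17%), which is below the other ESC-FCS cells and within the ESC-2i span. The share in single cells ran from 13.2% to 24.7% in ESC-2i (median 18.2%), from 13.1% to 27.1% in ESC-FCS (median 19.3%) and from 5.53% to 19.5% in NSC (median 11.9%), so the populations overlapped cell by cell. With the mitochondrially encoded transcripts left out of the total, the shares were 18.2%, 19.7% and 12.8%, and NSC remained lowest.

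**Figure D1:**
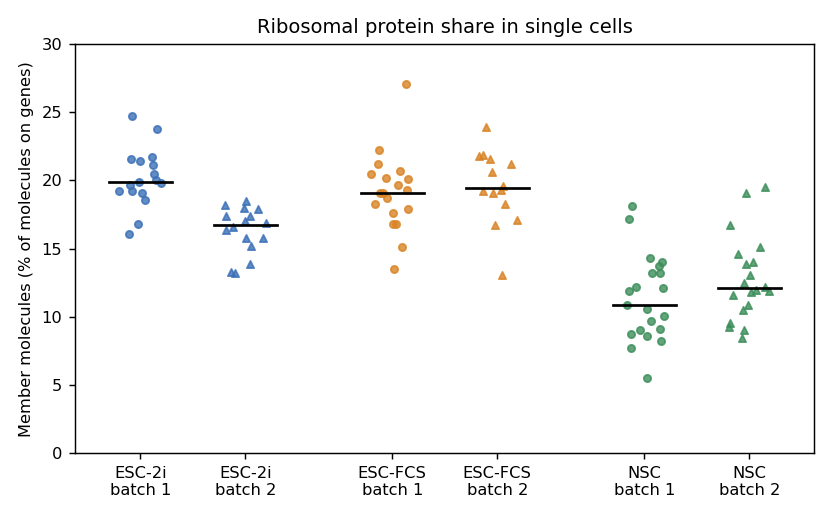
Share of molecules on genes that came from cytosolic ribosomal protein genes (vertical axis, percent) in each single cell, by population and library batch; points are cells, circles batch 1, triangles batch 2, and bars mark the batch medians. Most NSC sit below the embryonic stem cells, between 5.53% and 19.5%, and the ESC-2i batches differ from each other, with medians of 19.9% and 16.7%.

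Within a population the transcripts of the members rose and fell with the cell as a whole. Across cells, member molecules and all other molecules had a Pearson correlation of 0.896 in ESC-2i (n = 33 cells), 0.961 in ESC-FCS (n = 33) and 0.814 in NSC (n = 41). These cells share a library and differ in depth, so the values are descriptive. The share itself followed depth weakly, with Spearman values of -0.339, -0.0592 and 0.0594. Molecules of large and small subunit genes had Spearman values of 0.986, 0.977 and 0.97 with each other across cells.

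The large subunit genes gave 1.24 molecules for each molecule of the small subunit genes in ESC-2i (1.22 to 1.26), 1.28 in ESC-FCS (1.26 to 1.3) and 1.34 in NSC (1.3 to 1.38). The batches spanned 1.19 to 1.28, 1.25 to 1.31 and 1.3 to 1.38. Neighbouring populations overlapped by batch, and the control cells gave 1.2. The stalk genes Rplp0, Rplp1 and Rplp2 together took 0.591%, 0.864% and 0.474% of molecules.

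Levels of individual members differed far more than their equal numbers in the ribosome. The highest mean level over the populations was 452 times the lowest, that of Rpl10, which rested on 12, 3 and 4 molecules. Reads aligned to several places are missing from these levels, as described below for the lowest members. Of the 78 members, 39 averaged at least 10 per 10000, 12 lay between 2 and 10, and 27 lay below 2. The 10 most abundant members held 43.1% and the 20 most abundant 69.3% of all member molecules. Of the 50 most abundant genes of any kind, 28 were members.

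Rpl13, a large subunit protein, was the most abundant gene of all, at 109, 136 and 80.1 per 10000 in ESC-2i, ESC-FCS and NSC. It was found in every cell, between 69.1 and 165 per 10000 in ESC-2i, 57.9 and 218 in ESC-FCS, and 20.5 and 139 in NSC. The small subunit gene Rps20 followed, at 110, 94.2 and 58.5. Rpsa, whose protein also serves as the laminin receptor, stood at 67.7, 103 and 57.1. Other highly abundant members were Rpl8 (73.2, 85 and 65.3), Rpl32 (102, 68 and 51.7), Rpl13a (71.3, 85.5 and 50), Rpl26 (59.6, 61.7 and 42.6) and Rpl4 (62, 62.9 and 34.4). All of these were lowest in NSC, while ESC-2i led in some and ESC-FCS in others. Rps20 and Rpl32 were above their ESC-FCS levels in ESC-2i, and Rpl13, Rpsa, Rpl8 and Rpl13a were below them.

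The 2 leading transcripts ended at 1 site each. Rpl13 had 8334 of its 8335 molecules at base 123105232 of chromosome 8 (plus strand, GRCm38), and Rps20 had 7046 of 7061 at base 3834474 of chromosome 4 (minus strand). The last 30 transcribed bases are shown because they carry the polyadenylation signal, in capitals.
Rpl13: ttctgtgttggagagctgcAATAAAttttc
Rps20: taagacaactgAATAAAtcgtcttaatggt

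The 5 lowest members that were detected were Rps6, Rps27, Rpl10l, Rpl29 and Rpl10. Rps6, the target of S6 kinases, had 0.38, 0.618 and 0.461 per 10000. Rps27 had 0.434, 0.397 and 0.395, Rpl29 had 0.353, 0.529 and 0.132, and Rpl10 had 0.326, 0.132 and 0.263. Rpl10l, a copy gene, had 0.842, 0.221 and 0. Reads that align to several places had been removed before deposit. In this annotation 28 of 76 members (36.8%) had another annotated transcript matching the last 100 bases before their main site, against 2.89% of 5597 other genes. Such a copy was present for 11 of 39 high, 5 of 12 middle and 12 of 25 low members. How much of the low levels this removal accounts for was not tested.

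**Figure D2:**
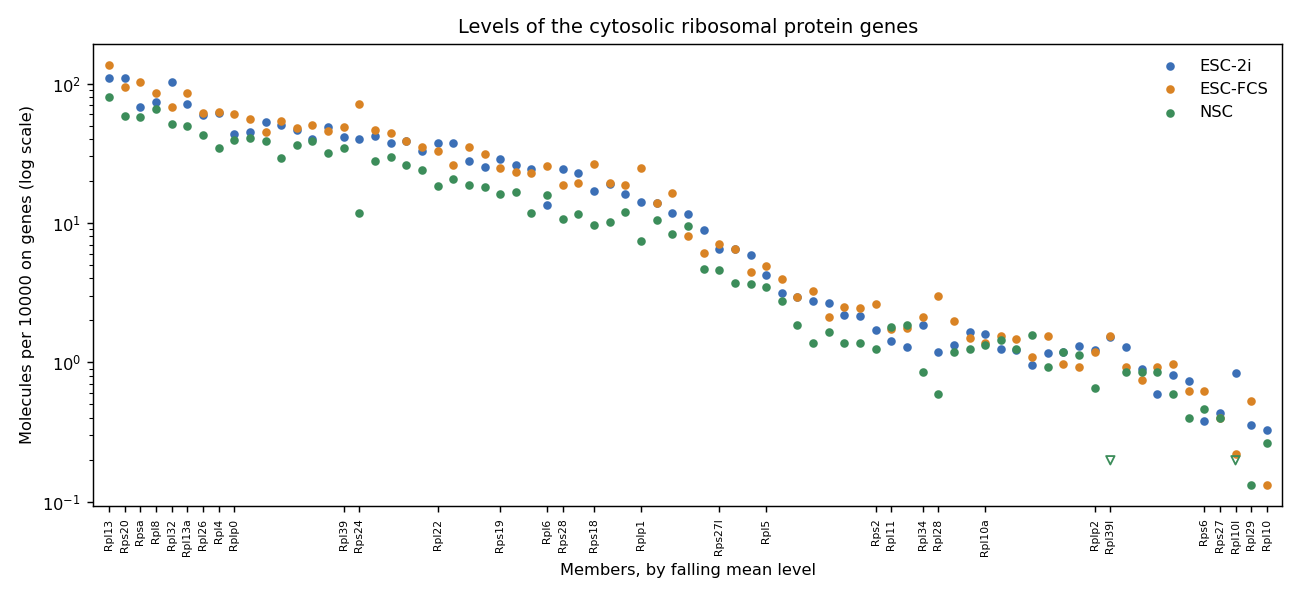
Level of members (vertical axis, molecules per 10000 molecules on genes, log scale) in ESC-2i (blue), ESC-FCS (orange) and NSC (green), ordered by mean level, with some names given below; open triangles mark 0 molecules, drawn at the level of 3 molecules. The green points lie below the others for most members, and Rps24 has the widest gap among abundant members, from 70.8 in ESC-FCS to 11.7 in NSC.

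Most members were lower in NSC than in either embryonic stem cell population. A gene was tested where either population held at least 20 molecules, and called where it changed at least 1.5-fold with the same direction in all 4 pairs of batches. Against ESC-2i, 31 of 74 members tested were called lower, where 35.9% of all genes were, and 1 was called higher, where 19.9% of all genes were. The share called lower was thus near that of all genes, and the share called higher was small. The median member differed by -0.54 on the log2 scale, against -0.30 for all 3678 genes tested, and 67 of 74 members were below 1-fold. Against ESC-FCS, 35 of 71 members were called lower (29.7% of all genes) and 0 higher (25% of all genes), with a median of -0.62 against -0.14 for the 2465 genes. The comparisons share the NSC libraries, so they are not independent. Both subunits took part: 18 of 45 large and 13 of 29 small subunit genes were called lower against ESC-2i, and 20 of 43 and 15 of 28 against ESC-FCS.

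These counts depend on what the levels are scaled to. Per spike-in molecule, a scale that does not divide by the cell's own total, the median of all genes moved by -0.60 against ESC-2i and -1.49 against ESC-FCS. On that scale 53 of 74 members were lower against ESC-2i (45% of all genes) and 70 of 71 against ESC-FCS (72.1% of all genes), and 0 were higher in either comparison (13.7% and 8.32% of all genes). The median member moved further than the median gene, by -0.84 and -1.97 on the log2 scale. NSC against the ESC-FCS control cells gave 25 lower and 5 higher of 64 members, against 40.5% and 25.4% of all genes.

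Rps24, a small subunit protein whose gene is mutated in some patients with Diamond-Blackfan anaemia, changed most among the abundant members. It stood at 40 per 10000 in ESC-2i (37.9 to 42.1), 70.8 in ESC-FCS (67.4 to 74.4) and 11.7 in NSC (10.1 to 13.6). Its batches gave 38.6 and 41.2, 72.7 and 68.2, and 10.9 and 12.6, and the control cells gave 67.8. No batch of one population overlapped another population. By cell, Rps24 ran from 23.1 to 72.3 (median 39.1) in ESC-2i, 38.3 to 126 (median 66.5) in ESC-FCS and 0 to 27.9 (median 10.8) in NSC. NSC therefore had 0.293 of the ESC-2i level (0.25 to 0.343) and 0.166 of the ESC-FCS level (0.141 to 0.193). Its processed pseudogene Rps24-ps3 had 50, 103 and 3 molecules. The last 100 bases before its main site match 1 other annotated transcript, as do those of Rpl13a and Rpl5, so molecules of these genes could be split between copies. The gene is known for an alternatively spliced end of its coding sequence, and 3154 of its 3255 molecules came from base 24495854 of chromosome 14 (plus strand), whose last 30 bases locate the end counted here.
Rps24: ttctgagaggacaAATAAActaaaaagctc

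The other members furthest below ESC-2i in NSC were Rps28 (24.4 against 10.6 per 10000, 0.435-fold), Rpl34 (1.85 against 0.856, 0.464-fold), Rps21 (24.4 against 11.8, 0.483-fold), Rpl22 (37.5 against 18.4, 0.49-fold) and Rpl28 (1.19 against 0.593, 0.496-fold), beside the copy genes Rpl39l and Rpl10l described later. Rpl34 rested on 13 molecules in NSC. Rpl28 rested on 9 molecules there, and its interval of 0.213 to 1.03 reached 1. Rpl17 was the member called higher, at 1.58 against 0.95 per 10000. Its fold of 1.66 came from 24 and 35 molecules, with an interval of 0.946 to 2.88 that includes 1.

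Members far below their ESC-FCS levels in NSC included Rps24, Rpl28 (3 against 0.593, 0.198-fold), Rplp1 (24.7 against 7.44, 0.301-fold), Rps18 (26.7 against 9.61, 0.36-fold), Rpl34 (2.12 against 0.856, 0.404-fold) and Rps27a (3.26 against 1.38, 0.424-fold), with Rpl39l. Rps27a is made as a fusion with ubiquitin. Rpl28, Rplp1 and Rps18 were higher in the second ESC-FCS batch than in the first. Rpl28 had 1.23 and 5.39 per 10000 in the ESC-FCS batches, Rplp1 had 19.2 and 32.2, and Rps18 had 21.2 and 34.1. The control cells, of the same medium, gave 0.672, 14.2 and 16, below both of those batches for each of the 3 genes.

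The fold between NSC and ESC-2i varied with transcript length among the members. The 28 members of up to 600 nt had a median log2 difference of -0.84, the 25 members of 600 to 800 nt -0.56, the 16 of 800 to 1200 nt -0.37 and the 5 of 1200 to 2000 nt 0.03. Other genes of the same length bins had -0.41, -0.24, -0.24 and -0.25. Members up to 1200 nt were thus lower than other genes of like length, and the longest members were not. Against ESC-FCS the members had -0.72, -0.57, -0.62 and -0.22 (26, 25, 15 and 5 genes), and other genes had -0.25, -0.14, -0.18 and -0.07. The part of length in these differences was not tested.

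ESC-FCS and ESC-2i differed less. Of 74 members, 7 were called higher in ESC-FCS (13% of all genes) and 1 lower (25.6% of all genes), and the median member stood at 0.11 on the log2 scale, against -0.17 for all 3591 genes tested. Per spike-in molecule the median of all genes moved by 0.87, and 65 members were higher (58% of all genes) and 0 lower (5.6% of all genes). With the control cells in place of the ESC-FCS cells, 8 members were called higher (25.1% of all genes) and 22 lower (30.5% of all genes). Only 3 of the 7 remained called higher, so libraries of the same medium gave different calls.

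Of the 7 members called higher, Rps24 (1.77-fold), Rpl6 (1.89-fold) and Rps2 (1.52-fold) had control cell levels at least as far from ESC-2i, or nearly so. Rpl6 had 15 and 12.2 per 10000 in the ESC-2i batches, 28 and 22.3 in the ESC-FCS batches, and 27.7 and 34.2 in the control batches. Rps2, at 1.71 and 2.6 per 10000 in the populations, had 3.18 in the control cells. In these genes the lowest ESC-FCS batch, controls included, lay above the highest ESC-2i batch.

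Rps18 (1.58-fold) had a control level of 16 per 10000, just below its ESC-2i level of 16.9. Rplp1 (1.75-fold) had 14.1 in ESC-2i and 14.2 in the control cells. Rpsa (1.52-fold) had 69.7 and 66 in the ESC-2i batches, 117 and 83.9 in the ESC-FCS batches, and 77.4 and 83.9 in the control batches. For Rps18 and Rplp1 the difference from ESC-2i was thus seen in the ESC-FCS cells and not in the pooled control cells.

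**Figure D3:**
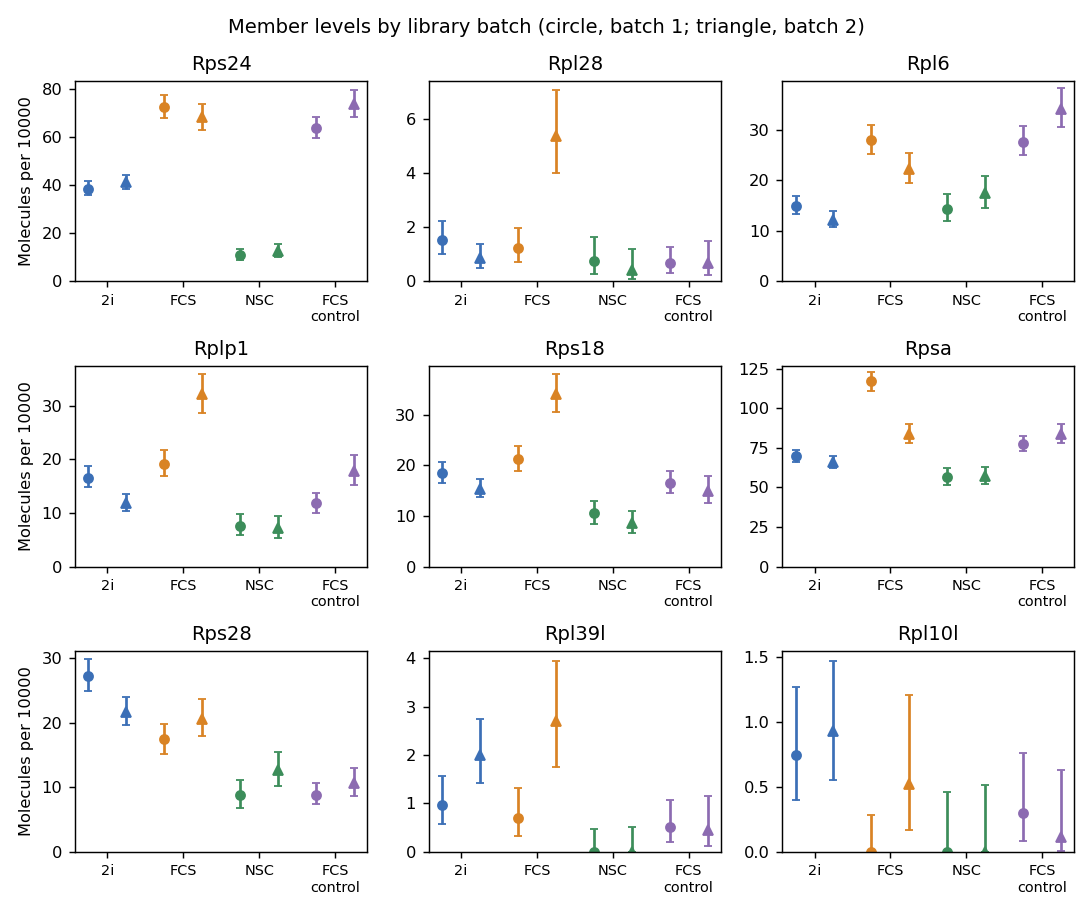
Levels of 9 members (vertical axes, molecules per 10000 molecules on genes) in each library batch of ESC-2i, ESC-FCS, NSC and the ESC-FCS control cells; circles are batch 1, triangles batch 2, and bars are exact 95% counting intervals. Rps24 separates the populations in every batch, whereas Rpl28 is high, at 5.39, in the second ESC-FCS batch and at most 1.55 elsewhere.

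Members with known roles outside the ribosome moved unevenly. Rpl5 stood at 4.26, 4.9 and 3.49 per 10000 in ESC-2i, ESC-FCS and NSC, and its partner Rpl11 at 1.41, 1.72 and 1.78; neither was called in any pair. Rpl10a was at 1.6, 1.37 and 1.32. Rps19, the gene most often mutated in Diamond-Blackfan anaemia, was at 28.7, 24.8 and 16.1 and was called lower in NSC in both comparisons. Of 12 members mutated in that anaemia, 0 were called higher (19.9% of all genes) and 3 lower (35.9%) in NSC against ESC-2i. Against ESC-FCS, 0 of 11 were called higher (25% of all genes) and 2 lower (29.7%). In ESC-FCS against ESC-2i 1 was higher (13% of all genes) and 0 were lower (25.6%). Among the stalk genes, Rplp0 stood at 43.8, 60.5 and 39.3 per 10000, Rplp1 at 14.1, 24.7 and 7.44, and Rplp2 at 1.22, 1.19 and 0.658. Rplp0 was called lower in NSC against ESC-FCS, and Rplp1 was called lower in NSC against both and higher in ESC-FCS against ESC-2i, while Rplp2 was called in none of the pairs. The control cells had 22.5 per 10000 of Rps19 and 51 of Rplp0, between NSC and the other ESC-FCS cells.

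Some members are copies of others that are used in particular tissues. Rpl39l, a copy of the X-linked Rpl39 best known from the testis, had 56 molecules in ESC-2i (20 of 33 cells), 35 in ESC-FCS (17 of 33 cells) and 0 in NSC (0 of 41 cells). The count of 0 allows a level of up to 0.198 per 10000 at a floor of 3 molecules over the population, and the exact 95% upper limit is 0.243. Rpl39l was thus at least 7.7-fold lower in NSC than in ESC-2i and at least 7.82-fold lower than in ESC-FCS on that floor, and the exact 95% limits nearest to equality were 6.06-fold and 6.03-fold. Its partner Rpl39 was in all 33, 33 and 41 cells, at 41.3, 48.7 and 34.7 per 10000. Rpl39l batches gave 0.975 and 2.01 per 10000 in ESC-2i, 0.691 and 2.7 in ESC-FCS, and 0.493 in the control cells.

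Rpl10l, an intronless autosomal copy of the X-linked Rpl10 that takes part in male meiosis, had 31, 5 and 0 molecules. It was in 20 of 33, 5 of 33 and 0 of 41 cells. NSC was at least 4.26-fold below ESC-2i on the floor of 3 molecules, with an exact 95% limit of 3.26-fold. ESC-FCS had 0.262 of the ESC-2i level (0.0796 to 0.68), with 0 molecules in its first batch. Its partner Rpl10 had only 12, 3 and 4 molecules. Rps27l exceeded its partner Rps27 in counted molecules, with 241, 161 and 70 against 16, 9 and 6. Rps27 and Rpl10 are among the 5 lowest members. The part that the removal of reads aligned to several places had in their low counts was not tested. Rpl3l, a striated muscle copy of Rpl3, had 6 molecules in the second ESC-2i pool and none listed in the other libraries. The ends show that the copies Rpl39l and Rpl39 differ in the counted bases, and no other annotated transcript matched the last 100 bases of either.
Rpl39: gtttgtccagtAATAAAatatagaaccttt
Rpl39l: tcagtAATAAAtatgtgaaaccttttgttt
Rpl10l: tatagagaATTAAAcatgaaaattacatct
Capitals mark the polyadenylation signal. The Rpl39 end lies at base 37082560 of the X chromosome (minus strand), that of Rpl39l at 10174621 of chromosome 16 (plus strand), and that of Rpl10l at 66283382 of chromosome 12 (minus strand).

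Rpl22 and its paralog Rpl22l1 ran in opposite directions. Rpl22, an RNA binding protein that is known to repress Rpl22l1, had 37.5, 32.9 and 18.4 per 10000. Rpl22l1, which lies outside the symbol rule and was chosen after its values were seen, had 4.64, 6.53 and 10.7. Rpl22 was called lower and Rpl22l1 higher in NSC in both comparisons (2.3-fold and 1.63-fold for Rpl22l1). The control cells had 23.2 per 10000 of Rpl22 (batches 22.3 and 24.5), between NSC and the other ESC-FCS cells.

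Processed pseudogenes of ribosomal protein genes are numerous in the mouse genome. The 169 genes of the table named as such held 2645, 1867 and 831 molecules, or 0.718%, 0.824% and 0.547% of molecules. In NSC 6 of them exceeded the gene they are named after, against 5 in ESC-FCS and 4 in ESC-2i. Rps13-ps1, on chromosome 8, had 899, 726 and 308 molecules against 103 for Rps13 over the populations. Rpl9-ps6, which the annotation types as protein-coding, had 172, 81 and 40 molecules against 171 for Rpl9 in all, and Rpl3-ps2 had 97, 68 and 26 against 97 for Rpl3. Counts of these genes and their parents may be split between near-identical copies and are uncertain.

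Other genes of the translation machinery gave a mixed picture. Of 23 genes with TOP mRNAs or ribosome-bound products outside the rule, 3 were called higher and 2 lower in NSC against ESC-2i. There were 1 and 4 in NSC against ESC-FCS, and 4 and 0 in ESC-FCS against ESC-2i. Over all genes, 19.9% were called higher and 35.9% lower in NSC against ESC-2i. These shares were 25% and 29.7% in NSC against ESC-FCS, and 13% and 25.6% in ESC-FCS against ESC-2i. Fau, which is made as a fusion with a ubiquitin-like protein, fell furthest in NSC, at 5.46, 4.15 and 2.17 per 10000. Tpt1, with a classical TOP mRNA, had 1.57, 5.29 and 4.54 and was called higher in both ESC-FCS and NSC against ESC-2i. The least changed were Eef1a1 in ESC-FCS against ESC-2i (0.975-fold), Eif3f in NSC against ESC-2i (1.04-fold) and Npm1 in NSC against ESC-FCS (0.967-fold). The median of this list, -0.15 in NSC against ESC-2i and -0.26 against ESC-FCS on the log2 scale, lay nearer to that of all genes than did the median member.

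Of the ribosome biogenesis genes tested, 4 of 23 were called higher and 6 lower in NSC against ESC-2i, and 2 and 8 of 20 against ESC-FCS. In ESC-FCS against ESC-2i, 4 of 23 were higher and 1 lower. Of all genes, 19.9% were called higher and 35.9% lower in NSC against ESC-2i, and 25% and 29.7% against ESC-FCS. In ESC-FCS against ESC-2i these shares were 13% and 25.6%. Bop1, a processing factor of the large subunit, had 1.19, 1.15 and 3.49 per 10000. Gar1, a subunit of the pseudouridylation particle, had 0.923, 1.72 and 0.263, the last a level of 4 molecules in NSC, as for Rpl10. The largest folds of the list were thus Wdr12 in ESC-FCS against ESC-2i (2.2-fold higher) and Gar1 and Bop1 in the NSC comparisons. Those closest to 1-fold were Nop16 (1.01-fold) in ESC-FCS against ESC-2i, Nop2 (1.05-fold) in NSC against ESC-2i, and Nop56 (0.97-fold) in NSC against ESC-FCS. Beside the same shares of all genes, the mitochondrial ribosomal protein genes had 12 higher and 11 lower of 59 in NSC against ESC-2i. They had 6 and 11 of 48 in NSC against ESC-FCS, and 6 and 5 of 59 in ESC-FCS against ESC-2i. Their summed share was 0.902%, 0.945% and 0.897%, so it was level where the cytosolic genes were lowest.

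Most members ended at 1 site. The main site held a median of 96.8% of a member's molecules (n = 77), against 80.8% in 5954 other genes, and 67.5% of members had at least 90% there, against 36%. Of member molecules, 68.3% lay within 10 nt of an annotated end in the deposited site classes (55.1% for other genes), 0.0296% in introns (2.34%) and 0.116% downstream of genes (7.04%). The median transcript length up to the main site was 670 nt for members and 2341 nt for 5599 other genes.

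Of 76 members with a readable end, 73 (96.1%, 88.9 to 99.2) had AATAAA or ATTAAA in the 50 bases before the main site, against 85.8% of 5599 other genes. AATAAA was found in 86.8% of members and 70.3% of other genes, and ATTAAA without AATAAA in 9.21% and 15.5%. These motifs were searched on the transcribed strand. Their first base lay 11 to 34 nt before the site, with a median of 20 nt. Rpl23a, Rpl27 and Rpl7a had neither hexamer in this window.

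A few members used a second, more distal end, and its use differed between the populations. The distal share of the molecules at the 2 most used sites was tested where both populations had at least 20 molecules at them and the smaller site held at least 10% in 1 of them, and called at a difference of at least 10 percentage points in the same direction in all 4 batch pairs. In NSC against ESC-2i, 3 of 15 members were higher (26.7% of all 435 genes tested) and 0 lower (5.98%). In NSC against ESC-FCS, 2 of 14 were higher (19.9% of 376) and 2 lower (7.98%). In ESC-FCS against ESC-2i, 2 of 22 were higher (14.8% of 757) and 1 lower (8.72%). These shares were below or near those of all genes, apart from the 2 lower calls, which rest on few molecules.

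Rpl13a, whose product also takes part in translational control after interferon, had its ends at bases 45125924 and 45125566 of chromosome 7 (minus strand), 358 nt apart. The distal end took 3.74% in ESC-2i (98 of 2617 molecules, 3.05 to 4.54), 11.2% in ESC-FCS (215 of 1919, 9.83 to 12.7) and 20.2% in NSC (152 of 751, 17.4 to 23.3). The batches gave 3.47% and 4.04%, 10.7% and 12.1%, and 23.8% and 17.2%, so the batches of the populations did not overlap. The control cells gave 16%. The ESC-FCS pool gave 17.9% (15.3 to 20.7), above the second NSC batch, so libraries of the ESC-FCS medium reached the NSC range. At least 1 distal molecule was found in 31 of 33, 32 of 33 and 37 of 41 cells, so both ends were used within the same cells.

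Rpl5 had ends at 107908051 and 107909002 of chromosome 5 (plus strand), 951 nt apart. Its distal share was 1.91% in ESC-2i (3 of 157 molecules), 8.18% in ESC-FCS (9 of 110) and 35.8% in NSC (19 of 53, 23.1 to 50.2), with 34.6% and 37% in the NSC batches. Rpl27a, with ends at 109521769 and 109522349 of chromosome 7 (plus strand), 580 nt apart, had 4.55% (27 of 594), 9.95% (42 of 422) and 27.4% (49 of 179, 21 to 34.5). Both were highest in NSC in every batch. The control cells gave 7.45% for Rpl5 and 8.68% for Rpl27a, close to the other ESC-FCS cells. The ESC-FCS pool gave 9.09% and 11.7%, below both NSC batches.

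Below the 10 points, Rpl22 had 2.12%, 1.78% and 10.8% (30 of 277 molecules in NSC) at an end 1594 nt further on, and Rpl37a had 9.72%, 14.4% and 19.1% at an end 55 nt further on. The control cells had 23.2% for Rpl37a (18.6 to 28.2), above the NSC value, and 1.96% for Rpl22. The ESC-FCS pool had 21.6% for Rpl37a and 10.5% for Rpl22 (6.94 to 15.2), the latter near the NSC value. The ends of the first 4 genes are shown because they are where the populations differed. Each distal end has a hexamer of its own, in capitals.
Rpl13a proximal: tggtgtgaacccAATAAAgactgtttgcct
Rpl13a distal: ggattttatgtgctAATAAAttatttgact
Rpl5 proximal: ataaagacAATAAAcatattgatcaagcag
Rpl5 distal: tgaactttttAATAAAtgagtcatttgaat
Rpl27a proximal: ggaggttaATTAAAtgctaacattttccat
Rpl27a distal: taaagagtaccttggagtaAATAAAtaaag
Rpl22 proximal: gttttgtattaattcataAATAAAatttag
Rpl22 distal: tcactttttgtATTAAAgtggctgacacat

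**Figure D4:**
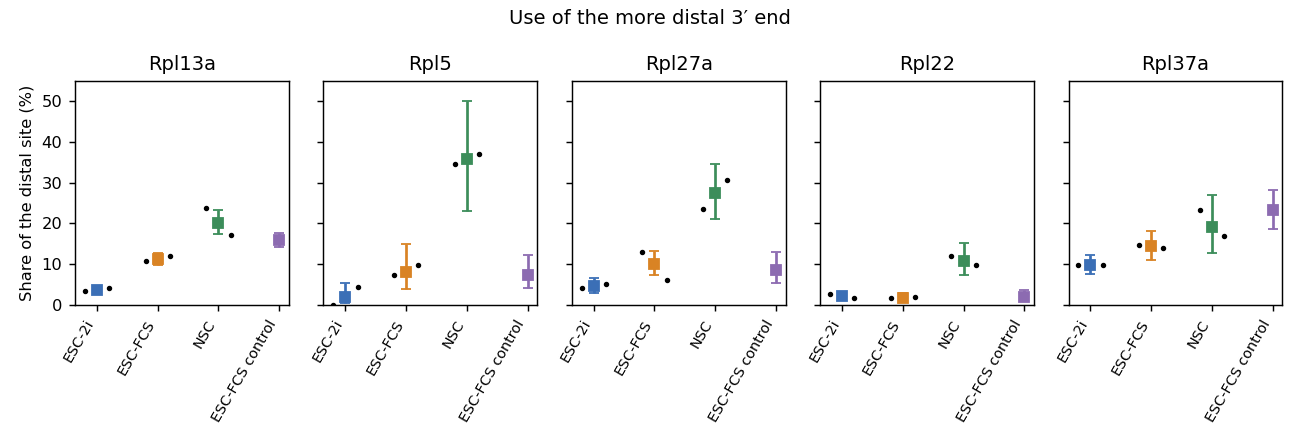
Share of molecules at the more distal of the 2 most used ends (vertical axis, percent) for Rpl13a, Rpl5, Rpl27a, Rpl22 and Rpl37a in ESC-2i, ESC-FCS, NSC and the ESC-FCS control cells; squares are pooled cells with exact 95% intervals and dots are the library batches. NSC is highest for the first 4 genes, reaching 35.8% for Rpl5.

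The remaining calls rest on fewer molecules. Rpl11 had a distal share of 67.3%, 86.1% and 73.9% from 49, 36 and 23 molecules, and Rpl7 78.3%, 79.4% and 59.3% from 46, 34 and 27. In both the second site lies upstream of the main one and has no hexamer in its last 30 bases. Rpl28 had 4 of 38, 0 of 64 and 1 of 8 distal molecules. Rps12 had 19%, 33.3% and 22.2% at ends 15 nt apart. Ends this close are near the 12 nt within which positions had been merged. Rps10, whose ends lie 13 nt apart, had a distal share of 59.6%, 58.1% and 60.3% in the populations and 100% in the control cells. Rps12 had 30.8% in the control cells. The part of the merging in these shares was not tested.

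The start of the transcripts was examined in the RefSeq promoter table (GRCm38.p6), for CTTTC, a form of the TOP motif. It lay within 15 bases of the annotated start of 17 of the 60 members matched by symbol (28.3%) in the transcribed direction and of 3.33% on the opposite strand. Over 27025 genes of the table these shares were 4.76% and 4.21%, and over 4601 other genes with at least 20 molecules 4.15% and 3.54%. The window of Rpl13 (chr8:123102335-123102364, plus strand), the most abundant gene, and that of Rpl39l (chr16:10170213-10170242, plus strand) show the motif in capitals.
Rpl13: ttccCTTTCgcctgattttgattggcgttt
Rpl39l: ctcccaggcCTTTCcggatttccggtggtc
A match is a description of these letters and not of a start measured in these cells.

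Variation between cells within a population was compared with the technical noise of the spike-ins, with the method of Brennecke and colleagues, where a gene's squared coefficient of variation (CV2) must exceed the noise by a margin of 0.25. Of the members tested, 0 of 74 were called in ESC-2i (0.719% of 3616 genes), 1 of 69 in ESC-FCS (3.85% of 2026) and 0 of 49 in NSC (2.16% of 1157). At an unadjusted p under 0.05 there were 1, 1 and 0 members. The member called was Rpl39l in ESC-FCS, with a CV2 of 3.61 against a technical 1.48 (Benjamini-Hochberg adjusted p = 0.0138). Its batches, at 0.691 and 2.7 per 10000, differed, and within either ESC-FCS batch alone no member was called.

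In ESC-2i the lowest p values belonged to Rpl39l (CV2 1.69 against 0.742, adjusted p = 0.573), Rplp2 and Rps27l. In NSC they belonged to Rpl39, Rpl41 and Rpl7, each with an adjusted p of 1. The median ratio of CV2 to technical noise was 1.03, 1.04 and 0.897 for members and 0.955, 1.01 and 0.885 for all genes tested. Without the margin 7 of 74, 13 of 69 and 2 of 49 members were called, beside 3.24%, 11.2% and 7.09% of all genes tested. Abundant members such as Rpl41 (CV2 0.274 against 0.0796 in ESC-FCS) lay above the noise by less than the margin.

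The pool libraries of the same media held fewer ribosomal protein molecules than the single cells. Members took 10.8% of molecules in the ESC-FCS pool, and 2.94% and 1.15% in the ESC-2i pools, against 16.5% in the ESC-FCS control cells and 17.9% in the ESC-2i cells. The median member had 0.736 of its control cell level in the ESC-FCS pool (other genes 1.03), and 0.1 and 0.0282 of its ESC-2i level in the ESC-2i pools (other genes 1.12 and 1.15). In the ESC-2i pools the ratio followed transcript length. In the first ESC-2i pool, members of up to 600 nt had a median ratio of 0.0442 and other genes of that length 0.0645; at 600 to 800 nt the ratios were 0.0911 and 0.262, at 800 to 1200 nt 0.357 and 0.604, and other genes over 2000 nt had 1.48. In the ESC-FCS pool members had 0.705, 0.762 and 0.688 in the same 3 bins, below the 0.853, 0.884 and 0.946 of other genes.

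Short transcripts that are not members were thus low in the ESC-2i pools too. Of 11 members with at least 20 molecules in both the first ESC-2i pool and the ESC-2i cells, 7 had a higher distal share in the pool, and Rpl19, Rpl3, Rpl7 and Rps10 had a lower one. In the second pool 4 of 5 had a higher share. Rpl19 had 0 of 59 molecules at its distal end in the first pool, against 51.5% in the cells. Among the higher ones, Rpl13a had 27.2% and 39.4%, Rpl5 25.4% and 63.6%, and Rpl22 31.2% and 63.9% in the 2 pools, against 3.74%, 1.91% and 2.12% in the ESC-2i cells. In the ESC-FCS pool Rpl13a had 17.9% and Rpl5 9.09%, near the control cells, and Rpl22 had 10.5%, above their 1.96%. In the ESC-2i pools the large to small subunit ratio was 1.41 and 1.85. The part of library preparation in these differences was not tested.

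**Figure D5:**
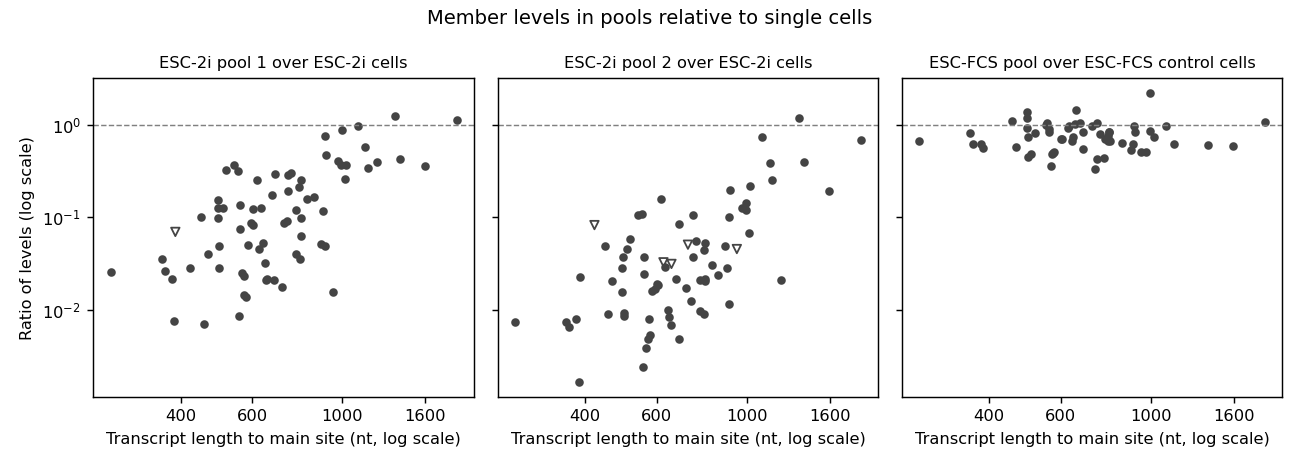
Ratio of each member's level in a pool library to its level in single cells (vertical axis, log scale) against transcript length up to the main site (horizontal axis, nt, log scale); each point is a member, open triangles mark members with 0 molecules in the pool set to 3, and the dashed line marks equal levels. Short members are the lowest in both ESC-2i pools, with Spearman values of 0.596 and 0.573 with length, while the ESC-FCS pool shows no such slope (-0.00254).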

How the data were processed

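BATSeq tags the 3′ end of each polyadenylated RNA in a sorted cell with a molecular identifier. Per the deposited files and the study's methods, the authors aligned reads with GSNAP to GRCm38 and the ERCC spike-ins, removed reads that were short, A-rich, internally primed or aligned to several places, merged identifiers 1 base apart and positions within 12 nt, and deposited counts of molecules and of reads per site, with no normalization. The gene table holds sums over sense sites.

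The 107 cells of the deposited gene table entered, each with at least 1000 molecules, and 42 control cells passed the same minimum. Of the 144 cells sequenced, 109 had at least 1000 molecules, so the gene table leaves out some that reach it. Counts were pooled over the cells of a population, or of a library batch of 24, and scaled per 10000 molecules on genes. Intervals were exact at 95% (Poisson or Clopper-Pearson, conditional binomial for folds). A fold was called at 1.5 or more, with at least 20 molecules in either population and the same direction in all 4 batch pairs, and a count of 0 was set to 3 molecules. Because the labels name no replicate cultures, no count model such as a negative binomial test was fitted between populations, and no p-values were computed between them. The test of Brennecke and colleagues was run across genes with a normalized mean above 0.5 within each population, with a CV2 margin of 0.25 and a Benjamini-Hochberg threshold of 0.1. It takes cells as units, was tested on simulated data, and called some genes in simulated ESC-FCS cells that had no added variation.

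Sites of the control and pool libraries were matched within 12 nt. Ends and lengths came from GENCODE M21 transcripts and promoters from RefSeq GRCm38.p6. Copies were found with blastn 2.17.0 (at least 95% identity over 90 nt of the last 100 nt). Python 3.11.15, numpy 2.4.6, pandas 2.3.3, scipy 1.17.1, statsmodels 0.14.6 and matplotlib 3.10.9 were used. None of the 144 cells had counts identical to another.

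Some items are not reported here. The other genes named are the 10 highest and 5 lowest members, up to 8 called members with the largest fold in each direction per pair, copy genes and their partners, members with shifted or second ends, the most variable members, members with known roles, and the most and least changed genes of the other lists (TOP mRNAs, ribosome biogenesis, mitochondrial ribosomal proteins). Members and lists were chosen with earlier results of these data known. Alternatives covered scaling, thresholds, cell filters, reads, and each batch left out. The use of the ESC-FCS control cells in place of the ESC-FCS cells was added after seeing the data.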

Additional observations from a re-analysis of the deposited data

How the results depend on the processing

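No paired analysis was possible because the labels name single cells by well, which pairs no cells across populations, and no test was made between populations. Depth limits the lowest members: 27 average under 2 per 10000, and NSC cells hold a median of 3282 molecules.

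The ribosomal protein share stayed lowest in NSC under each alternative. In ESC-2i it was 18.3% as a mean over cells, 19.8% with reads, 18.7% with pseudogene molecules added and 18.2% without mitochondrial genes. In ESC-FCS the last 3 gave 20.5%, 20.2% and 19.7%, and in NSC pseudogenes and mitochondrial genes gave 12.7% and 12.8%. Leaving out a batch gave 16.3% to 19.8% in ESC-2i and 11.3% to 13% in NSC. The subunit ratio was 1.25 with reads in ESC-FCS, and with a batch left out ran from 1.19 to 1.28 in ESC-2i and from 1.25 to 1.31 in ESC-FCS.

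For ESC-FCS against ESC-2i (7 higher, 1 lower), spike-in scaling gave 65 higher and 0 lower, median-ratio scaling 5 lower, a fold of 2 gave 1 higher, a minimum of 50 molecules 0 lower, no minimum 2 lower, and a mean over cells 2 lower. Leaving out a batch gave 5 to 15 higher and 0 to 6 lower: 15 higher without ESC-2i batch 1, 6 lower without ESC-2i batch 2, 14 and 3 without ESC-FCS batch 1, and 5 lower without ESC-FCS batch 2. With the control cells 22 were lower, and Rps18 (0.949-fold) reversed. With a batch left out, fewer batch pairs had to agree, so those counts follow a less strict rule. Of all genes, 13% were called higher and 25.6% lower under the main rule. These shares were 58% and 5.6% with spike-in scaling, and 25.1% and 30.5% with the control cells. Shares of all genes under the other settings are not given here, so those counts describe the members only.

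For NSC against ESC-2i (1 higher, 31 lower), spike-in scaling gave 0 higher and 53 lower, median-ratio scaling 0 and 47, a fold of 2 gave 0 and 9, a minimum of 50 molecules 0 higher, and cells with at least 2000 molecules 2 higher. Leaving out a batch gave 1 to 3 higher and 20 to 43 lower, with 20 lower without ESC-2i batch 1. For NSC against ESC-FCS (0 higher, 35 lower), spike-in scaling gave 70 lower and a fold of 2 gave 9 lower, the control cells 5 higher, and leaving out a batch 0 to 2 higher and 31 to 43 lower. Against ESC-2i, 19.9% of all genes were higher and 35.9% lower under the main rule, and 13.7% and 45% with spike-in scaling. Against ESC-FCS these shares were 25% and 29.7%, and 8.32% and 72.1%. With the control cells they were 25.4% and 40.5%. Shares under the other settings are not given here, and a batch left out again made the rule less strict.

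Shifts of the distal end rested on few molecules. For ESC-FCS against ESC-2i (2 higher, 1 lower), 20 points and a minimum of 50 molecules each gave 0 higher and 0 lower, and reads 0 higher and 3 lower; leaving out a batch gave 1 to 3 higher and 0 to 2 lower. For NSC against ESC-2i, 2 were lower in cells with at least 2000 molecules, 3 with reads, and 1 to 2 with a batch left out. For NSC against ESC-FCS, 20 points gave 1 higher and 1 lower, 50 molecules 0 lower, reads 4 lower, and leaving out a batch 2 to 4 higher and 1 lower. Rpl7 reversed with reads, to 5.25 points. Shares of all genes called for a shift under these alternatives are not given here. Variable members numbered 7, 13 and 2 without the margin, and 0 in ESC-FCS with a margin of 0.5 or with either batch left out. AATAAA alone marked 86.8% of members. For the called members with the largest folds or with a shift, 326 values under the alternatives were still called in the same direction. Another 33 kept their direction without being called, and 2 reversed. A gene not tested under an alternative was not counted there, and the causes were not tested.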
